A study of Mus musculus with 14 samples.

Results

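The 10 genes described here encode factors that set the balance between vessel growth and vessel restraint around the retinal pigment epithelium (RPE). They are the growth factors Vegfa, Vegfb, Vegfc and Pgf, the vessel stabilizer Angpt1, the inhibitors Serpinf1 (which encodes PEDF), Thbs1 and Thbs2, and the oxygen-regulated transcription factor subunits Hif1a and Epas1. They were chosen by symbol, as 10 of the 42687 genes in the count table, and each symbol was matched to 1 Ensembl gene. All 10 had enough reads to be tested in every comparison. The RNA came from purified RPE cells of 14 male mice at 3 months of age, detached from the eyecup with enzymes, with the cells of both eyes of a mouse pooled into 1 library. KO mice (Best1-Cre+/-;Clic4 f/f) lose Clic4, a chloride intracellular channel family protein, in cells where the Best1 promoter drives Cre, which in these mice begins after birth. Each of 3 sets had KO libraries of its own. The WT set held 3 KO and 3 WT (C57BL6/J) libraries, the Ctrl set 2 KO and 2 Ctrl (Clic4 f/f littermates without Cre), and the CreCtrl set 2 KO and 2 CreCtrl (Best1-Cre+/- without floxed alleles). Floxed alleles were thus shared by KO and Ctrl mice, and Cre by KO and CreCtrl mice. Control genotype and set cannot be told apart, because each control genotype was in 1 set only.

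VEGF-A is secreted by the RPE mainly toward the choroid, where it maintains the fenestrated capillaries through VEGFR2. VEGF-B and placental growth factor bind VEGFR1, whereas VEGF-C acts chiefly on lymphatic vessels through VEGFR3. PEDF and the thrombospondins restrain vessel growth, and angiopoietin 1 quiets the endothelium through the receptor Tie2. HIF-1α and HIF-2α (encoded by Epas1) are degraded in normal oxygen after prolyl hydroxylation and binding to VHL, and in low oxygen they activate Vegfa and genes of glycolysis. Most of that control acts on protein stability, which mRNA does not report.

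The deposited counts of a library summed to between 9828293 and 32384166, with the 3 WT libraries the shallowest (9828293 to 12363580). Levels are given as CPM (counts scaled to a fixed library total), adjusted with trimmed-mean (TMM) factors within each set. The lowest count of any of the 10 genes in any library was 29, for Angpt1 in KO replicate 3 of the WT set. Clic4 itself was at 240.4 to 249 CPM in WT and 17.9 to 32.6 CPM in their KO libraries, at 59.4 and 69.2 CPM in Ctrl against 9.40 and 32.7 CPM in KO, and at 86.5 and 109 CPM in CreCtrl against 13.2 and 30.4 CPM in KO. Cell type markers also differed between the arms. The sum of 10 RPE markers was 17669 to 25766 CPM in WT and 73105 to 80258 CPM in the KO libraries of that set, 44806 to 45805 against 69345 to 71218 CPM in the Ctrl set, and 51038 to 58126 against 69619 to 77976 CPM in the CreCtrl set. The sum of 10 fibroblast markers was 8646 to 8943 CPM in WT and 279 to 779 CPM in KO, 1189 to 2337 against 120.4 to 318 CPM in the Ctrl set, and 1401 to 2823 against 267 to 348 CPM in the CreCtrl set. The sum of 10 endothelial markers was 271 to 495 CPM in WT against 56.4 to 116 CPM in KO, 90.4 to 99.7 against 18.9 to 45.3 CPM in the Ctrl set, and 148.2 to 232 against 35.6 to 39.5 CPM in the CreCtrl set. The sum of 17 immediate-early genes, which are induced within minutes of stress such as tissue dissociation, was 17212 to 20358 CPM in WT and 1259.8 to 2772 CPM in KO, 7891 to 11565 against 581 to 2243 CPM, and 5822 to 6251 against 489 to 918 CPM. The sum of 7 pericyte and smooth muscle markers was 2190.4 to 2272 CPM in WT against 297 to 368 CPM in KO, 427 to 796 against 213 to 275 CPM in the Ctrl set, and 403 to 635 against 243 to 281 CPM in the CreCtrl set. Of 10 myeloid markers, 9 fell and 1 rose in KO vs. WT and 8 fell in KO vs. CreCtrl, and of 5 erythrocyte markers 5 and 2 fell. In KO vs. Ctrl no marker of these 2 lists passed, and 8 of the 10 myeloid markers had positive log2 fold changes. The myeloid sum there was 652 to 1024 CPM in Ctrl against 800 to 1407 CPM in KO. Rod markers ran from 64.7 CPM in a WT library to 4960.1 CPM in CreCtrl replicate 2. No RPE or fibroblast marker was at 0 in any library, and the endothelial marker Tal1 was at 0 in 2 KO libraries. Best1, whose promoter drives Cre, averaged 1.35 to 4.85 CPM. Rpe65, the retinoid isomerase that defines the RPE, averaged between 1426 CPM (WT) and 6030.3 CPM (KO of the CreCtrl set). In bulk RNA, fewer cells of a type and less RNA per cell cannot be told apart. The labels and methods name each library as a separate mouse, so the tests measure the spread between mice of these groups. With 3 mice in each arm the smallest p of an exact two-sided permutation test of 1 gene is 0.1, and with 2 in each arm it is 0.333. The p-values given are therefore those of the quasi-likelihood test of edgeR, adjusted over all genes tested by the Benjamini-Hochberg method.

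In KO vs. WT, 9 of the 10 factors passed an adjusted p under 0.05. The 4 that rose were Vegfa, Vegfb, Hif1a and Epas1, and the 5 that fell were Pgf, Serpinf1, Thbs1, Thbs2 and Angpt1. Vegfc did not pass. Over all 15428 genes tested, 35.1% passed, 16.1% higher and 19% lower in KO. In KO vs. CreCtrl, the 4 factors that passed were all lower (Pgf, Serpinf1, Thbs2 and Angpt1) and 0 passed as higher, against 15.8% of 15963 genes called, 3.6% higher and 12.2% lower. In KO vs. Ctrl none of the 10 passed by edgeR, and 0% of 15287 genes did (0% higher and 0% lower). The deleted gene Clic4 itself did not pass in KO vs. Ctrl (log2 fold change -1.61, standard error 0.58, adjusted p = 0.333), so the absence of a call there says little. There, 3 of the 10 (Serpinf1, Thbs2 and Angpt1) had an unadjusted p under 0.05, and DESeq2 called Serpinf1 and Thbs2, both lower. Of all genes in that set, DESeq2 called 17 higher and 1094 lower. The share of all genes with an unadjusted p under 0.05 was not computed, so the 3 of the 10 cannot be set against it. In the fit of KO vs. control over the 3 sets (7 against 7 libraries, with the set as a covariate), 8 factors passed: Vegfa, Vegfb, Hif1a and Epas1 higher, and Pgf, Serpinf1, Thbs2 and Angpt1 lower. Of 16181 genes in that fit, 38.7% passed, 20.1% higher and 18.6% lower. Without the WT set, 3 of the 8 passed (Serpinf1, Thbs2 and Angpt1). Where libraries were scaled by their totals alone, without TMM factors, the median over all genes tested went from -0.08 to -0.32 on the log2 scale in KO vs. WT, from 0.01 to -0.11 in KO vs. Ctrl, from -0.02 to -0.24 in KO vs. CreCtrl and from -0.01 to -0.27 over the 3 sets. The share of calls that were higher in KO then went from 45.9% to 30.3% in KO vs. WT, from 22.7% to 7.36% in KO vs. CreCtrl (40.4% with DESeq2) and from 52.0% to 25.0% over the 3 sets. With that scaling Vegfb was not called in KO vs. WT, nor Vegfa, Vegfb or Hif1a over the 3 sets. The KO libraries lay wholly above or wholly below the controls for 5 and 5 factors in the WT set, 1 and 3 in the Ctrl set, and 4 and 4 in the CreCtrl set. Over all genes tested the shares above and below were 23.7% and 28.4%, 18.2% and 22.8%, and 34.8% and 36.9%.

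**Figure D1:**
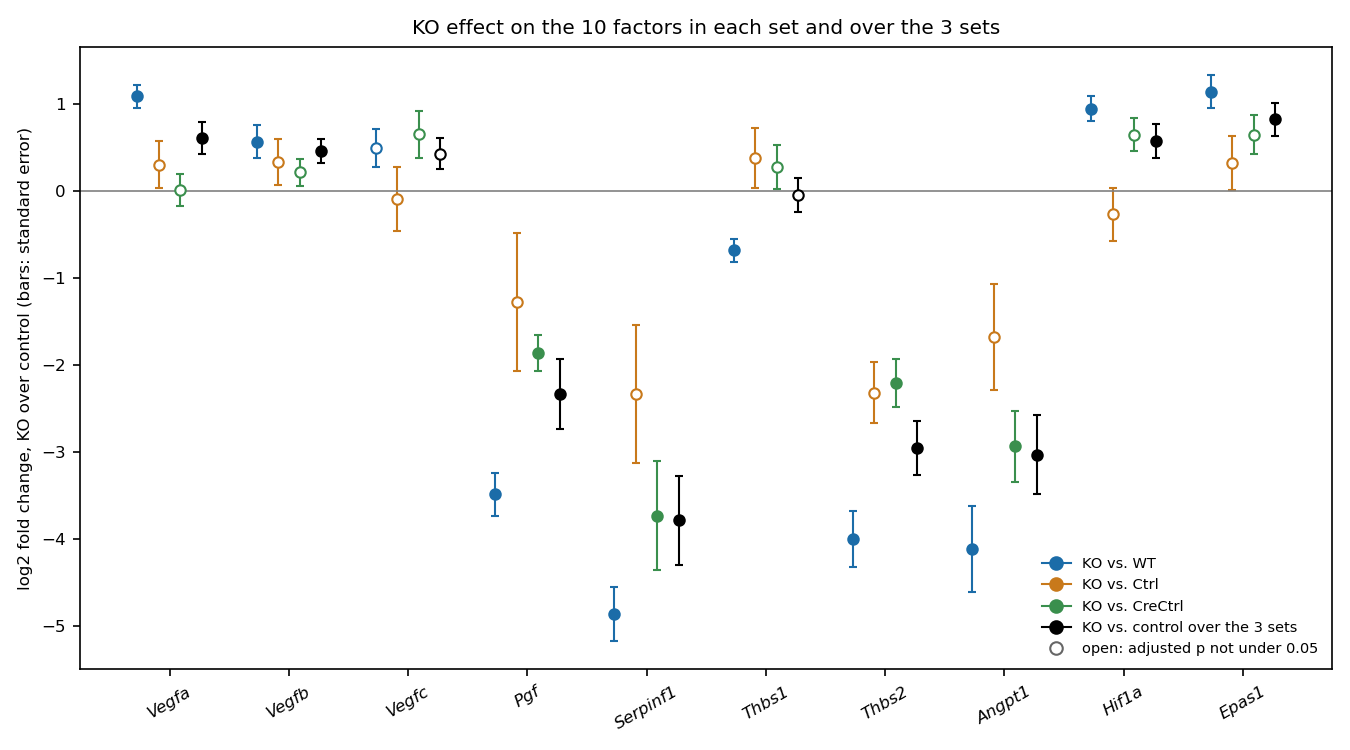
Log2 fold change of KO over control (y axis) for the 10 factors, with standard errors as bars, in KO vs. WT (blue), KO vs. Ctrl (orange), KO vs. CreCtrl (green) and over the 3 sets (black). Filled points passed an adjusted p under 0.05. Pgf, Serpinf1, Thbs2 and Angpt1 lie below 0 in every comparison, and Vegfa ranges from 0.02 in the CreCtrl set to 1.09 in the WT set.

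Vegfa (chromosome 17 of GRCm38, 46016993 to 46032369, minus strand) encodes the main angiogenic and permeability factor made by the RPE. It was at 579.8, 474 and 585 CPM in the WT libraries and at 1090.2, 1167 and 1229 CPM in the KO libraries of that set. The KO libraries all lay above the WT libraries, and Vegfa was 2.13-fold higher (log2 fold change 1.09, standard error 0.13, adjusted p = 0.000415). In the Ctrl set it was at 854 and 698 CPM in Ctrl and at 1063 and 853 CPM in KO. These groups overlapped by a narrow margin, and the log2 fold change of 0.30 (standard error 0.27) did not pass (adjusted p = 0.823). In the CreCtrl set it was at 1089 and 1076 CPM in CreCtrl and at 1127 and 1064 CPM in KO, so the CreCtrl libraries lay inside the range of the KO libraries (log2 fold change 0.02, standard error 0.18, adjusted p = 0.954). The 7 KO libraries thus ran from 853 to 1229 CPM, and the control levels from 474 to 585 CPM in WT to 1076 to 1089 CPM in CreCtrl. Each set was scaled on its own, so these ranges across sets are a description.

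Vegfb (chromosome 19, 6982473 to 6987651, minus strand), a VEGFR1 ligand linked to fatty acid uptake and cell survival, changed less than Vegfa in the WT set. It was at 132, 192 and 173 CPM in WT and at 219, 303 and 216 CPM in KO, with no overlap. The 1.48-fold rise (log2 fold change 0.57, standard error 0.19) passed with an adjusted p of 0.0444, and it did not pass without WT replicate 1 (adjusted p = 0.114), WT replicate 3 (0.0871) or KO replicate 2 (0.0827). In the Ctrl set Vegfb was at 165 and 186 CPM in Ctrl and at 183 and 261 CPM in KO, which overlapped (log2 fold change 0.34, standard error 0.26, adjusted p = 0.783). In the CreCtrl set it was at 178 and 171 CPM in CreCtrl and at 214 and 192 CPM in KO, without overlap but also without a call (log2 fold change 0.22, standard error 0.16, adjusted p = 0.344).

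Vegfc (chromosome 8, 54077606 to 54187096, plus strand), the lymphatic growth factor, had the lowest mean level per kb of exon of the 4 ligands in each control group, with overlap with Pgf in Ctrl. It was at 16.6, 15.6 and 17.7 CPM in WT and at 19.8, 27.5 and 23.1 CPM in KO. All 3 KO libraries lay above WT, but the log2 fold change of 0.49 (standard error 0.22) did not pass (adjusted p = 0.122). It was at 21.7 and 13.4 CPM in Ctrl against 19.2 and 13.7 CPM in KO (log2 fold change -0.09, standard error 0.37), and at 15.4 and 10.1 CPM in CreCtrl against 17.2 and 23.0 CPM in KO (0.65, standard error 0.27, adjusted p = 0.124). Vegfc passed in none of the 4 comparisons.

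Pgf (chromosome 12, 85166635 to 85177790, minus strand), which encodes placental growth factor, was lower in KO vs. WT, where Vegfa and Vegfb were higher. It was at 197, 182 and 284 CPM in WT and at 16.7, 26.1 and 16.4 CPM in KO, an 11.2-fold fall (log2 fold change -3.49, standard error 0.25, adjusted p = 4.38e-05). In the CreCtrl set it fell 3.63-fold, from 26.7 and 32.6 CPM to 7.56 and 8.73 CPM (log2 fold change -1.86, standard error 0.21, adjusted p = 0.00489). In the Ctrl set the controls were far apart, at 48.5 and 10.8 CPM, and overlapped the KO libraries at 6.89 and 17.5 CPM (log2 fold change -1.28, standard error 0.79, adjusted p = 0.691). Without Ctrl replicate 1, the library at 48.5 CPM, that log2 fold change was 0.18. The call in the CreCtrl set was lost in the fit of all 14 libraries as 6 groups (log2 fold change -1.83, adjusted p = 0.0764).

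**Figure D2:**
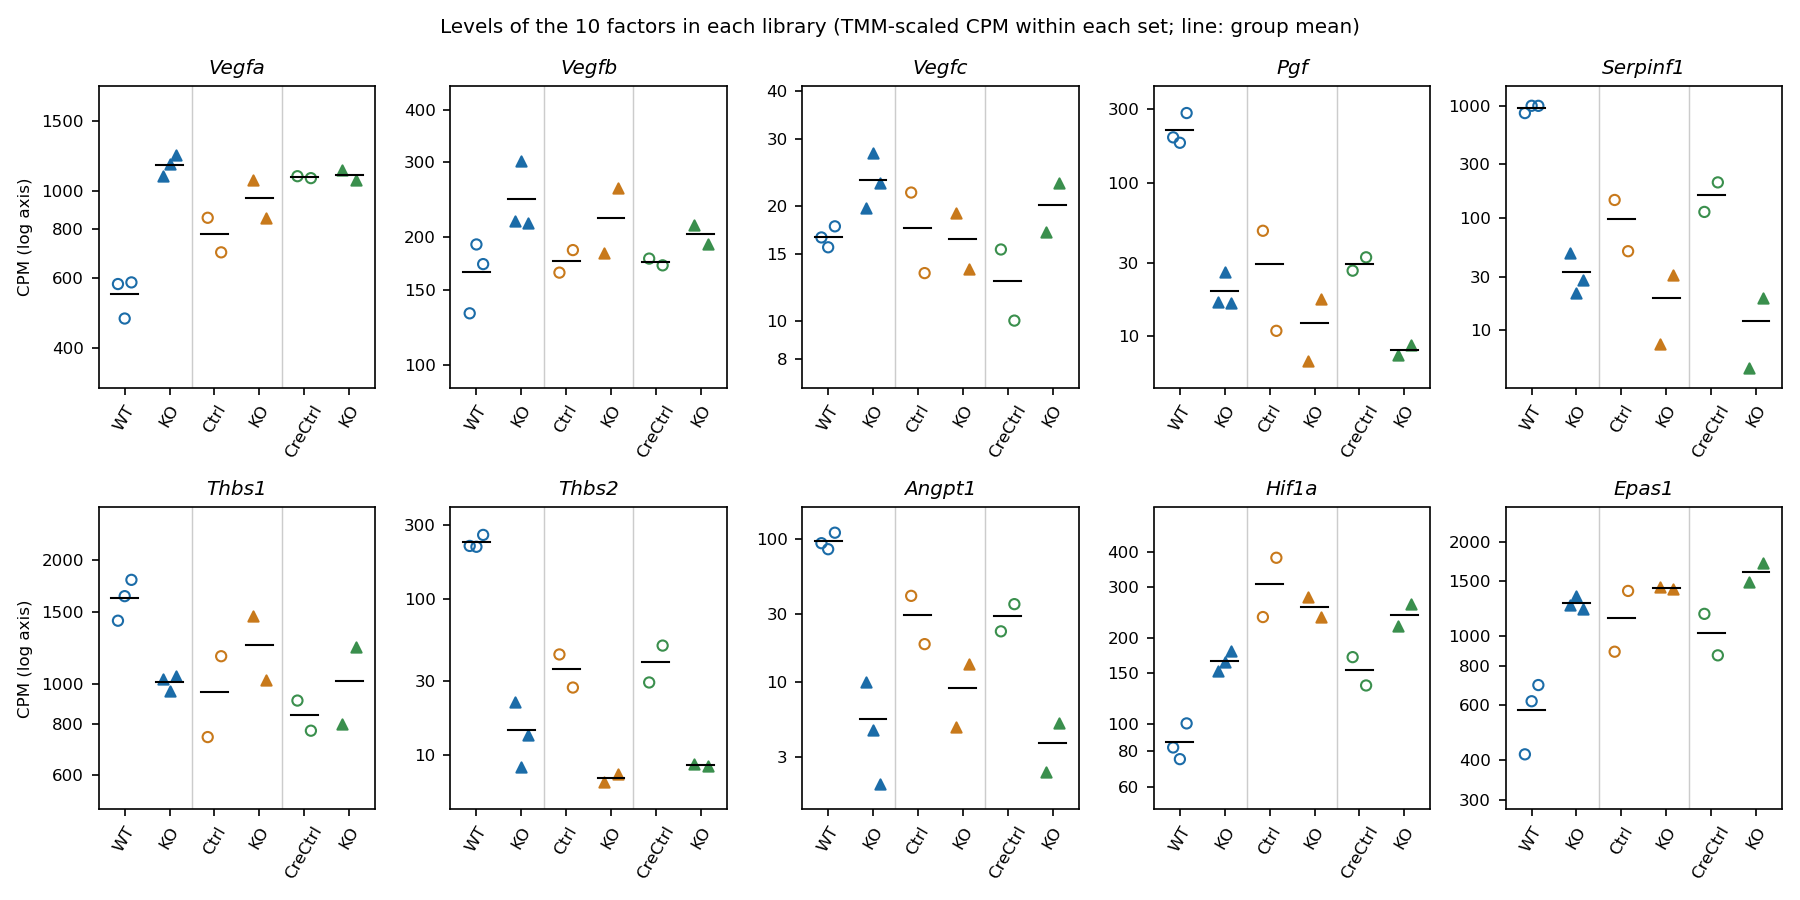
CPM (y axis, log scale, TMM-scaled within each set) of the 10 factors in each library, with control libraries as open circles, KO libraries as filled triangles and group means as lines (WT set blue, Ctrl set orange, CreCtrl set green). The WT libraries hold 858 to 997 CPM of Serpinf1, against 50.4 to 207 CPM in the Ctrl and CreCtrl libraries and 4.58 to 48.6 CPM in the 7 KO libraries.

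Serpinf1 (chromosome 11, 75409769 to 75422701, minus strand) encodes PEDF, a secreted serpin that restrains vessel growth and supports photoreceptors. It had the largest fall of the 10 factors in KO vs. WT, from 858, 997 and 995 CPM to 48.6, 21.4 and 28.1 CPM. This was 29.0-fold lower in KO (log2 fold change -4.86, standard error 0.31, adjusted p = 3.33e-05). In the CreCtrl set it was at 113 and 207 CPM in CreCtrl and 4.58 and 19.4 CPM in KO, a 13.2-fold fall (log2 fold change -3.73, standard error 0.63, adjusted p = 0.0134). In the Ctrl set it was at 144 and 50.4 CPM in Ctrl and 7.58 and 31.0 CPM in KO. The KO libraries lay below both controls there, but the log2 fold change of -2.33 (standard error 0.79) did not pass with edgeR (adjusted p = 0.302) and did with DESeq2 (adjusted p = 0.0222). Per kb of exon, Vegfa and Serpinf1, whose proteins oppose each other on vessels, were at 128 ± 14.6 and 403 ± 33.9 CPM (SD, n = 3) in WT and at 271 ± 16.3 and 13.9 ± 6.02 CPM (SD, n = 3) in KO of that set. The order did not change in the other sets, where Vegfa was the higher in controls too. Vegfa and Serpinf1 averaged 181 and 41.3 in Ctrl against 224 and 8.19 in KO. In the CreCtrl set they averaged 253 and 67.8 in CreCtrl against 256 and 5.08 in KO.

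Thbs2 (chromosome 17, 14665500 to 14694235, minus strand), which encodes the matrix protein thrombospondin 2, followed the direction of Serpinf1. It was at 220.4, 218 and 259 CPM in WT and at 21.8, 8.32 and 13.4 CPM in KO (16.0-fold lower, log2 fold change -3.998, standard error 0.32, adjusted p = 6.03e-05). The CreCtrl set gave 29.2 and 50.5 CPM against 8.72 and 8.53 CPM in KO (log2 fold change -2.21, standard error 0.28, adjusted p = 0.00632). The Ctrl set gave 44.3 and 27.1 CPM against 6.71 and 7.59 CPM in KO, with a log2 fold change of about the same size (-2.32, standard error 0.35) that did not pass with edgeR (adjusted p = 0.106). It passed there with DESeq2 (adjusted p = 3.22e-06) and in the fit of all 14 libraries as 6 groups (adjusted p = 0.00786). The KO libraries lay below the controls in all 3 sets.

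Thbs1 (chromosome 2, 118111876 to 118127133, plus strand), which encodes thrombospondin 1, an inhibitor of endothelial cells through CD36 and CD47, did not follow Thbs2. It was at 1425, 1636 and 1792 CPM in WT and at 1027, 962 and 1046 CPM in KO, 1.60-fold lower (log2 fold change -0.68, standard error 0.13, adjusted p = 0.00419). In the fit of all 14 libraries as 6 groups it did not pass (log2 fold change -0.54, adjusted p = 0.0654). That fit took the spread, the TMM factors and the gene filter over all 14 libraries. In the other sets it was at 743 and 1168 CPM in Ctrl against 1466 and 1022 CPM in KO (log2 fold change 0.38, standard error 0.35, adjusted p = 0.834), and at 911 and 769.6 CPM in CreCtrl against 800.0 and 1233 CPM in KO (0.27, standard error 0.25, adjusted p = 0.454). Those groups overlapped, and over the 3 sets the log2 fold change was -0.05 (standard error 0.19, adjusted p = 0.875). Of the exon bases of Thbs1, 3.42% are also covered by exons of Gm29233 on the other strand, and whether the counting used the strand is not given in the sources used here, so reads there cannot be assigned to one or the other.

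Angpt1 (chromosome 15, 42424723 to 42676977, minus strand), the Tie2 agonist, was at 93.7, 85.1 and 111 CPM in WT and at 10.1, 4.67 and 1.94 CPM in KO. The groups were far apart (17.3-fold lower, log2 fold change -4.11, standard error 0.49, adjusted p = 0.000372), although the 3 KO libraries themselves spanned a wide range. In the CreCtrl set it was at 22.7 and 35.2 CPM against 2.35 and 5.16 CPM in KO (log2 fold change -2.93, standard error 0.41, adjusted p = 0.00782). In the Ctrl set it was at 40.2 and 18.5 CPM against 4.89 and 13.4 CPM in KO, lower in both KO libraries without passing (log2 fold change -1.68, standard error 0.61, adjusted p = 0.344). The antisense gene Gm17473 covers 14.2% of its exon bases.

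Hif1a and Epas1 encode the α subunits HIF-1α and HIF-2α. Hif1a (chromosome 12, 73901375 to 73947530, plus strand) was at 82.4, 75.0 and 100.1 CPM in WT and at 153, 164 and 179.6 CPM in KO, a 1.93-fold rise (log2 fold change 0.95, standard error 0.14, adjusted p = 0.00109). In the CreCtrl set it was at 171 and 136 CPM in CreCtrl and 219.7 and 262 CPM in KO. Both KO libraries were above both controls, but the log2 fold change of 0.65 (standard error 0.19) did not pass with edgeR (adjusted p = 0.0567) and passed with DESeq2 (0.00546) and without CreCtrl replicate 1 (0.0162). In the Ctrl set the direction was not the same. Hif1a was at 236 and 381 CPM in Ctrl and 277 and 237 CPM in KO, with the 381 CPM of Ctrl replicate 2 the highest of all 14 libraries (log2 fold change -0.26, standard error 0.30, adjusted p = 0.880). Gm15283, an antisense gene, covers 5.60% of its exon bases.

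Epas1 (chromosome 17, 86753700 to 86833410, plus strand) was more abundant than Hif1a per kb of exon in every library. It was at 418, 619 and 697 CPM in WT and at 1258, 1345 and 1224 CPM in KO, 2.21-fold higher (log2 fold change 1.14, standard error 0.19, adjusted p = 0.00190). The Ctrl set gave 891 and 1393 CPM against 1439 and 1414 CPM in KO (log2 fold change 0.32, standard error 0.31, adjusted p = 0.850), and the CreCtrl set 1177 and 867 CPM against 1491 and 1717 CPM in KO (0.65, standard error 0.23, adjusted p = 0.0838). In all 3 sets the KO libraries lay above the controls, by a narrow margin in the Ctrl set. Epas1 passed in the CreCtrl set with DESeq2 (adjusted p = 0.00694) and without CreCtrl replicate 1 (0.0106).

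HIF dimers bind the hypoxia response element, whose core is ACGTG or GCGTG. The 250 bases before each RefSeq start (GRCm38.p6) were searched for both cores on both strands, to show which of the factors carry them within that stretch. Of the 10 factors, 7 are in the promoter table (all but Thbs1, Angpt1 and Epas1), with 9 start sites. A core was found in 1 window each of Hif1a, Vegfa, Vegfb, Serpinf1 and Pgf, and in none of Vegfc or Thbs2. Of all 32851 windows of this length, 16.6% hold ACGTG, 28.2% hold GCGTG and 38.6% hold either. Of the starts with a match, that of Vegfb is at the outer end of the GENCODE gene model, and those of Hif1a, Vegfa, Serpinf1 and Pgf lie inside it. The Vegfa window at its outer start holds none. Bases farther upstream were not searched for any gene, so a window without a core does not mean a promoter without one. Each line below gives 30 bases on the strand of the gene, 5′ to 3′, with the core in capitals (CACGT and CACGC are the cores read on the other strand). A second Hif1a match, on the other strand, overlaps the first one shown.
Hif1a, 134 bases before the start, chr12:73907721-73907750: acacagacaagcACGTGagcggggcagctc
Hif1a, 70 bases before the start, chr12:73907785-73907814: tggctgagagcaACGTGggctggggtgggg
Vegfa, 218 bases before the start, chr17:46025364-46025393: aagccctggagtGCGTGcccacgtcagaga
Vegfa, 211 bases before the start, chr17:46025357-46025386: ggagtgcgtgccCACGTcagagagcaacat
Vegfb, 237 bases before the start, chr19:6987871-6987900: ggtccttcaggtCACGCatctcctcacccc
Vegfb, 81 bases before the start, chr19:6987715-6987744: ccggtggggagcGCGTGtttaggtcacatg
Serpinf1, 93 bases before the start, chr11:75422699-75422728: ggagggtggccaACGTGtggtcttggagcc
Pgf, 124 bases before the start, chr12:85177420-85177449: gccctgcggggtCACGCgcactcaggtctc
Genes that rose (Hif1a, Vegfa, Vegfb) and genes that fell (Serpinf1, Pgf) in KO vs. WT are both among those with a core, and a match in letters is not evidence of binding.

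Over the 3 sets, the factors that passed as higher had log2 fold changes of 0.83 for Epas1 (standard error 0.19, adjusted p = 0.00387), 0.62 for Vegfa (0.18, adjusted p = 0.0164), 0.58 for Hif1a (0.19, adjusted p = 0.0292) and 0.46 for Vegfb (0.13, adjusted p = 0.0149). Without the WT set these 4 did not pass, at 0.47 for Epas1 (adjusted p = 0.162), 0.15 for Vegfa (0.538), 0.18 for Hif1a (0.648) and 0.27 for Vegfb (0.264). The Hif1a call was also lost in 8 of the 14 fits that left out a single library. Those that passed as lower were Serpinf1 at -3.78 (standard error 0.51, adjusted p = 0.000159), Angpt1 at -3.03 (0.46, adjusted p = 0.000371), Thbs2 at -2.95 (0.31, adjusted p = 2.78e-05) and Pgf at -2.33 (0.40, adjusted p = 0.000875). Pgf did not pass without the WT set (log2 fold change -1.58, adjusted p = 0.0901). Vegfc was at 0.43 (standard error 0.18, adjusted p = 0.0737), and it passed without the Ctrl set (0.61, adjusted p = 0.0166), without Ctrl replicate 1 (0.57, adjusted p = 0.0151) and without KO replicate 2 of the Ctrl set (0.54, adjusted p = 0.0228).

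Whether the KO effect itself differed between sets was tested in 1 fit of the 14 libraries as 6 groups. Between the WT and Ctrl sets, the effects on Vegfa and Hif1a differed, which is 2 of the 10 factors against 5.15% of 17662 genes. The effect on Vegfa was larger in the WT set by 0.92 on the log2 scale (standard error 0.24, adjusted p = 0.0422), and that on Hif1a by 1.36 (standard error 0.29, adjusted p = 0.0218). Between the WT and CreCtrl sets only Vegfa passed, by 1.18 (standard error 0.24, adjusted p = 0.0326), 1 of the 10 factors against 1.49% of genes. Between the Ctrl and CreCtrl sets none passed by edgeR, and 0% of genes did, and DESeq2 called 0 as well. Hif1a had an unadjusted p of 0.0103 there (difference -0.95, standard error 0.32, adjusted p = 0.486). The share of all genes with an unadjusted p under 0.05 was not computed for this contrast either. The calls of Vegfa and Hif1a given above are near the threshold. Each was refitted without 1 library at a time, over the 10 libraries of the sets compared. Vegfa lost its call in 8 of 10 such fits for the WT against the Ctrl set (adjusted p from 0.0360 to 0.186, the highest without KO replicate 2 of the Ctrl set) and in 8 of 10 for the WT against the CreCtrl set (from 0.0368 to 0.209, the highest without KO replicate 2 of the CreCtrl set). Hif1a lost its call in 3 of 10, without Ctrl replicate 2 (adjusted p = 0.158), KO replicate 2 of the Ctrl set (0.102) or KO replicate 2 of the WT set (0.0511). For Serpinf1, Pgf, Thbs2 and Angpt1 the difference between the WT and Ctrl sets was -1.55 to -2.40 and did not pass (adjusted p = 0.0788 to 0.140).

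Levels can be compared roughly between genes once divided by exon length, as CPM per kb of exon. The length joins the exons of all annotated transcripts of a gene (13 for Vegfa, 8 for Serpinf1 and 2 for Thbs1). It is not the length of the transcripts expressed, so the order of genes is approximate. In WT, Serpinf1 led with 403 CPM per kb, then Thbs1 with 266, and the libraries of these 2 genes did not overlap. Vegfa (128 CPM per kb), Epas1 (103), Vegfb (103) and Pgf (76.0) came next, and each overlapped its neighbour in this order. Below them were Thbs2 at 33.2, Angpt1 at 18.6, Hif1a at 14.6 and Vegfc at 6.80 CPM per kb, with overlap only between Angpt1 and Hif1a. In the KO libraries of that set the order was led by Vegfa at 271 CPM per kb and Epas1 at 228, without overlap, followed by Thbs1 at 167 and Vegfb at 153, which overlapped, and Hif1a at 28.1. Serpinf1 (13.9), Vegfc (9.59) and Pgf (6.79) overlapped their neighbours, and Thbs2 (2.08) and Angpt1 (1.07) were lowest. The Ctrl and CreCtrl libraries had Epas1, Vegfa and Thbs1 as their 3 highest, at 204, 181 and 157 CPM per kb in Ctrl and 183, 253 and 138 in CreCtrl, with Serpinf1 at 41.3 and 67.8. In KO of the Ctrl and CreCtrl sets Epas1 led, at 255 and 287 CPM per kb, and Thbs2 and Angpt1 were again the lowest.

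**Figure D3:**
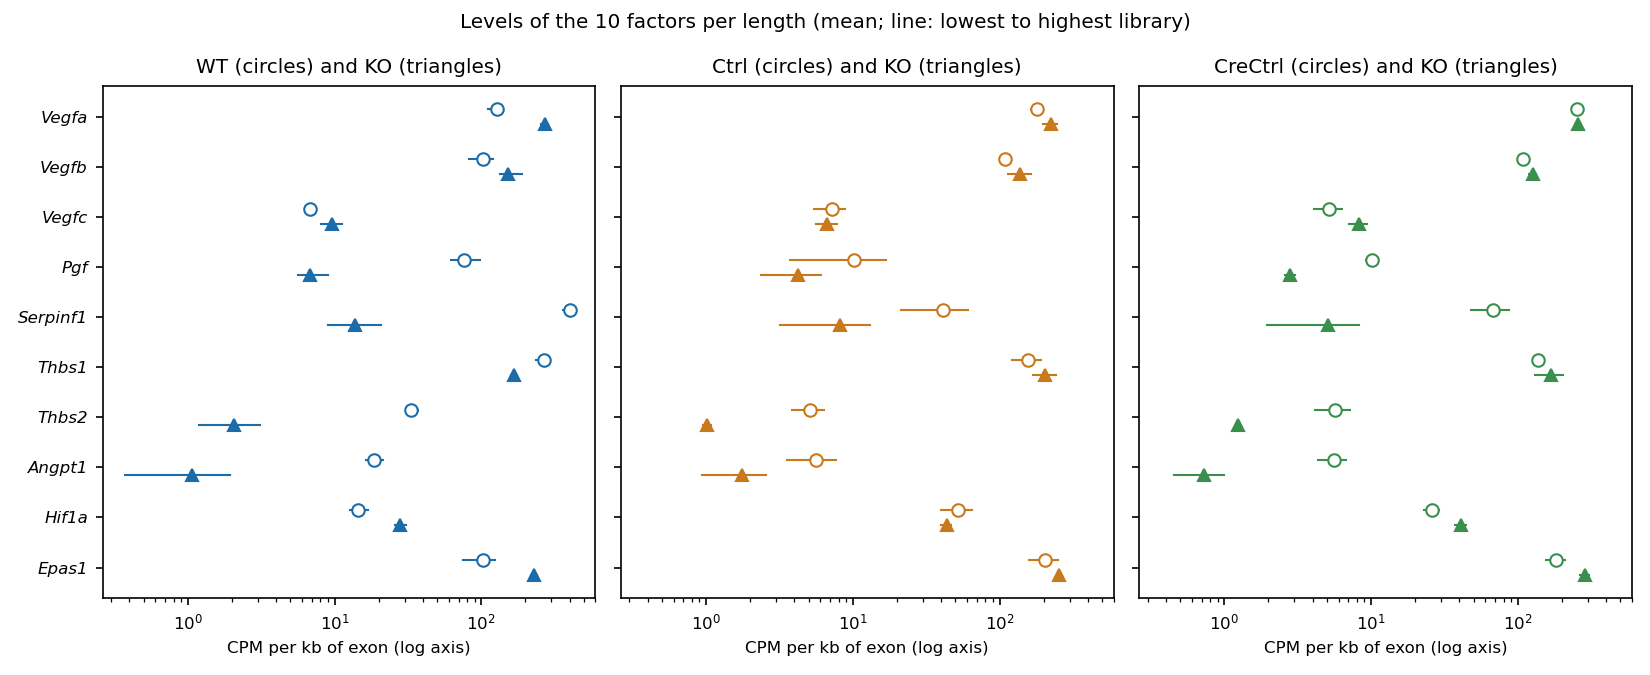
CPM per kb of exon (x axis, log scale) of the 10 factors in the 3 sets, with the mean of control libraries as circles, the mean of KO libraries as triangles and lines from the lowest to the highest library. Serpinf1 is the highest factor in WT at 403 CPM per kb and is at 13.9 in the KO libraries of that set.

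The factors were also set beside the marker sums, since both differed between the arms. Serpinf1 was at 99.2 to 111.7 CPM per 1000 CPM of the fibroblast markers in WT and 62.4 to 101 in the KO libraries of that set, ranges that overlap although Serpinf1 itself was 29.0-fold lower. It was at 42.4 to 61.7 in Ctrl against 63.0 to 97.7 in KO, and at 73.3 to 80.6 in CreCtrl against 17.1 to 55.7 in KO. Thbs2 was at 24.4 to 29.0 CPM per 1000 CPM of these markers in WT and 26.2 to 48.2 in KO, at 18.9 to 22.8 against 23.9 to 55.7 in the Ctrl set, and at 17.9 to 20.9 against 24.5 to 32.6 in the CreCtrl set. Angpt1 was at 9.54 to 12.4 in WT against 6.96 to 14.7 in KO, at 15.5 to 17.2 against 40.6 to 42.2 in the Ctrl set, and at 12.5 to 16.2 against 8.79 to 14.8 in the CreCtrl set. Pgf was at 20.4 to 31.7 in WT against 21.4 to 82.0 in KO, at 9.10 to 20.8 against 55.2 to 57.3 in the Ctrl set, and at 11.5 to 19.0 against 25.1 to 28.3 in the CreCtrl set. Relative to the fibroblast markers these 4 genes were therefore not uniformly lower in KO. The part of the fibroblast markers in their fall was not tested, nor that of the pericyte, endothelial, myeloid and erythrocyte markers.

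The factors that rose were set beside the RPE markers, of which 8 of 10 rose in KO vs. WT, none passed in KO vs. Ctrl, 1 rose in KO vs. CreCtrl, and 9 rose and Best1 fell (log2 fold change -1.02, adjusted p = 0.0484) over the 3 sets. Transthyretin (Ttr) made up much of their sum, with a mean of 37823 CPM in KO of the WT set. The summed melanocyte and Schwann cell markers were also higher in KO of the WT set (339 to 500.2 against 628 to 685 CPM). Single markers of that list went both ways. Of 6 tested in KO vs. WT, 2 were called higher and 2 lower, with a median log2 fold change of -0.14. There 1 of 10 rod markers rose, with positive log2 fold changes for all 10. All 10 were also positive in KO vs. Ctrl, without a call, but 9 fell in KO vs. CreCtrl (median log2 fold change -3.13). Over the 3 sets 1 rod marker rose and 9 had negative log2 fold changes without a call. Vegfa was at 22.7 to 32.8 CPM per 1000 CPM of the RPE markers in WT and 14.5 to 16.6 in KO, at 15.6 to 18.6 in Ctrl against 11.98 to 15.3 in KO, and at 18.7 to 21.1 in CreCtrl against 13.6 to 16.2 in KO. Relative to these markers Vegfa was thus lower in KO than in control libraries of every set. Vegfb was at 6.70 to 9.46 in WT against 2.91 to 3.78 in KO, but its groups overlapped in the Ctrl set (3.60 to 4.16 against 2.64 to 3.67) and in the CreCtrl set (3.06 to 3.36 against 2.47 to 3.07). Epas1 was lower in KO of the WT set (23.7 to 30.5 against 16.5 to 17.2), overlapped in the Ctrl set (19.4 to 31.1 against 19.9 to 20.7) and was higher in KO of the CreCtrl set (17.0 to 20.2 against 21.4 to 22.0). Hif1a was at 3.70 to 4.67 in WT against 2.05 to 2.42 in KO and at 5.15 to 8.50 in Ctrl against 3.32 to 3.996 in KO, but at 2.66 to 2.94 in CreCtrl against 3.16 to 3.36 in KO. The part of the RPE markers in the rise of these factors was not tested, and neither was that of the immediate-early genes, of which all 17 fell in KO vs. WT and in KO vs. CreCtrl.

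**Figure D4:**
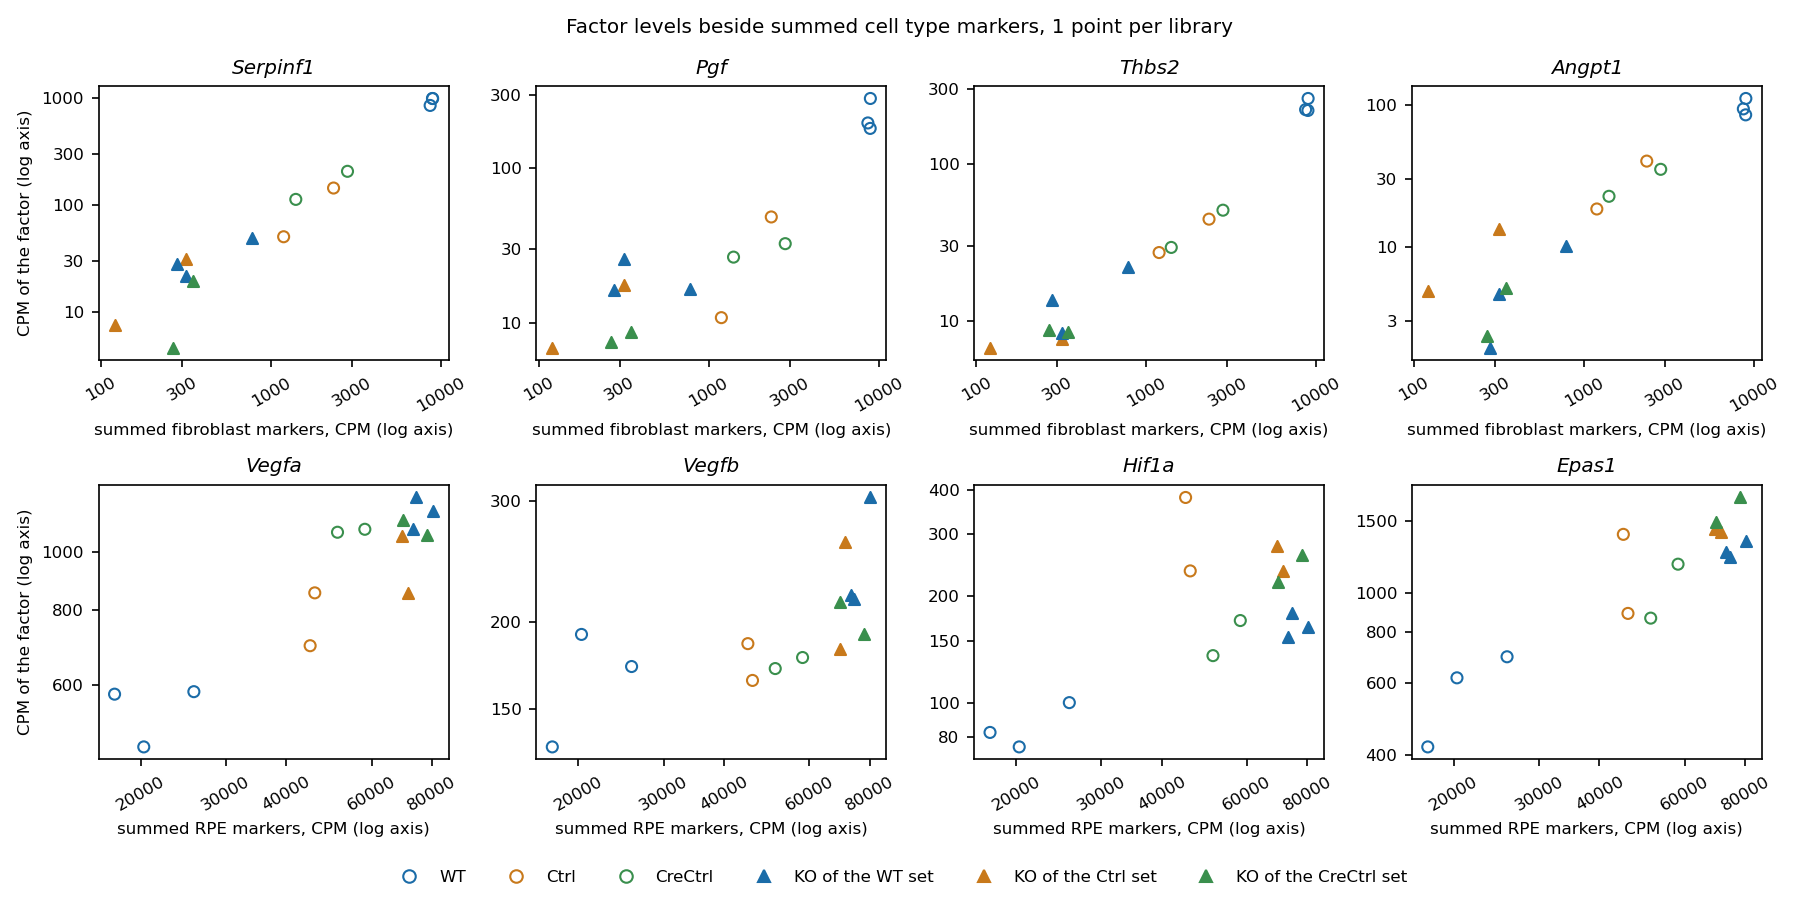
CPM of a factor (y axis, log scale) against the summed CPM of 10 fibroblast markers (upper row, x axis, log scale) or 10 RPE markers (lower row) in the 14 libraries, with controls as open circles and KO as triangles (WT set blue, Ctrl set orange, CreCtrl set green). WT libraries, at 8646 to 8943 CPM of fibroblast markers, hold the highest levels of Serpinf1, Pgf, Thbs2 and Angpt1.

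Profiles over the 14 libraries were compared by the root-mean-square difference of log2 CPM after centring each gene on its own mean. The genes nearest to Serpinf1 were Col6a1 (0.22) and Slit3 (0.23), against a standard deviation of 2.45 for Serpinf1 itself. Those nearest to Thbs2 were Boc (0.26) and Plpp3 (0.32), to Pgf Ano1 (0.31) and Cygb (0.41), and to Angpt1 Entpd2 (0.33) and Il1b (0.34). For Vegfa they were Rapgef3 (0.13) and Pex11a (0.14), and for Epas1 St6gal1 (0.098) and Lbh (0.11). The nearest to Hif1a were Sgms2 and Mob1b (both 0.18), to Thbs1 Heg1 (0.17) and Timp2 (0.20), to Vegfb Aes (0.11) and Hsbp1 (0.12), and to Vegfc Snrpb and Sap30l (both 0.16). These are descriptions over libraries that share their arms and sets, with no test.

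Of 6 genes for VEGF receptors, co-receptors and the VEGFR3 ligand Vegfd, 3 fell in KO vs. WT, none passed in KO vs. Ctrl, 4 fell in KO vs. CreCtrl and all 6 fell over the 3 sets, where their median log2 fold change was -1.54 against -0.01 for all genes tested. Nrp1, the co-receptor for VEGF-A and class 3 semaphorins, fell by 2.93 on the log2 scale over the sets (standard error 0.40), with -4.06 in the WT, -1.94 in the Ctrl and -2.42 in the CreCtrl set. Flt4 (VEGFR3) fell by 2.58 (standard error 0.65) and Nrp2 by 1.72 (standard error 0.24). In the fit of 6 groups the KO effect on Nrp2 differed between the sets, WT minus Ctrl, by -1.47 (adjusted p = 0.0273). Of 8 genes of the angiopoietin and Tie pathway, 6 fell over the 3 sets (median of the list -2.77), among them Tek, the Tie2 receptor of Angpt1, by 2.99 (standard error 0.60), Svep1 by 4.06 (standard error 0.48) and Angpt4 by 4.57 (standard error 0.97), the last from 271 counts in the 7 control libraries to 12 in the 7 KO libraries. In KO vs. WT 6 of 7 tested fell and Angptl4 rose, in KO vs. CreCtrl 6 of 8 fell, and in KO vs. Ctrl none of 7 passed. For both lists, the shares of all genes called lower were 19% in KO vs. WT, 12.2% in KO vs. CreCtrl and 18.6% over the 3 sets. Tek and Flt4 are made mostly by endothelial cells, whose 10 markers all fell over the 3 sets as given above, and the part of those markers here was not tested.

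Of 12 genes for thrombospondin relatives and receptors of thrombospondins and PEDF, 7 fell and 1 rose over the 3 sets (median -0.58). In KO vs. WT 9 were lower and 1 higher, in KO vs. Ctrl none passed, and in KO vs. CreCtrl 5 were lower and 1 higher. The shares of all genes called lower and higher were 18.6% and 20.1% over the 3 sets. They were 19% and 16.1% in KO vs. WT, and 12.2% and 3.6% in KO vs. CreCtrl. Comp (thrombospondin 5) had the largest fall, 5.11 on the log2 scale (standard error 0.53), then Plxdc1, a PEDF receptor, at -2.83 (0.55) and Cd36, the THBS1 receptor that also takes up lipids, at -2.76 (0.69). Itgav, the αv integrin used by the RPE for phagocytosis, rose by 1.27 (standard error 0.25), with 1.77 in the WT, 0.22 in the Ctrl and 1.32 in the CreCtrl set.

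Of 21 other secreted angiogenic and antiangiogenic factors, 5 rose and 11 fell over the 3 sets (median -0.95). These numbers were 5 and 10 in KO vs. WT, none in KO vs. Ctrl, and 1 and 7 in KO vs. CreCtrl. The shares of all genes called higher and lower were 20.1% and 18.6% over the 3 sets. They were 16.1% and 19% in KO vs. WT, and 3.6% and 12.2% in KO vs. CreCtrl. Sema3c rose by 0.77 (standard error 0.12), Fgf1 by 0.66 (0.19) and Timp3, a metalloproteinase inhibitor abundant in the RPE that also blocks VEGFR2, by 0.63 (0.20). Sema3a, a repulsive ligand of Nrp1, fell by 4.39 (standard error 0.82), Adamts8 by 4.01 (1.34) and Ccn2, the connective tissue growth factor, by 3.54 (0.62). Adamts8 rested on few reads, 193 counts in all control libraries against 14 in all KO libraries.

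Genes of oxygen sensing passed in both directions. Of 12 partners and regulators of the HIF subunits, 4 rose and 3 fell both over the 3 sets (median 0.23) and in KO vs. WT, none passed in KO vs. Ctrl, and 1 fell in KO vs. CreCtrl. The 3 that fell are near the share of all genes (18.6% lower over the 3 sets and 19% in KO vs. WT), and the 4 that rose stand against 20.1% and 16.1%. Egln1, the main HIF prolyl hydroxylase, rose by 0.78 (standard error 0.13), and Vhl and its partner Elob rose by 0.55 (0.15) and 0.70 (0.16). Egln3, a hydroxylase that is itself a HIF target, fell by 2.95 (standard error 0.73), Cited2, which competes with HIF for a coactivator, by 0.98 (0.20), and Arnt, the β subunit shared by both HIF dimers, by 0.62 (0.12). Egln3 reached 93.6 CPM on average in Ctrl against 0.927 CPM in the KO libraries of that set, yet did not pass there (adjusted p = 0.108). In the fit of 6 groups its KO effect was more positive in the WT than in the Ctrl set by 4.84 (standard error 1.02, adjusted p = 0.0207). The fall of Egln3 over the 3 sets was thus not shared evenly by the sets.

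Of 41 hypoxia response genes, 40 were tested over the 3 sets. There 13 rose, 14 fell and 13 did not pass, with a median log2 fold change of -0.18 against -0.01 for all genes tested. In KO vs. WT 15 rose and 12 fell of 39, in KO vs. Ctrl none passed, and in KO vs. CreCtrl 3 rose and 11 fell of 40. The shares of all genes called higher and lower were 20.1% and 18.6% over the 3 sets. They were 16.1% and 19% in KO vs. WT, and 3.6% and 12.2% in KO vs. CreCtrl, where all genes thus leaned lower. The members that rose most included the glycolytic enzymes Eno1 (1.31, standard error 0.28) and Aldoa (1.10, standard error 0.24) and the transferrin receptor Tfrc (1.03, standard error 0.21). The largest falls were in Adm, a vasodilator peptide (-3.06, standard error 0.89), Slc2a3, a glucose transporter (-3.06, standard error 0.52), and Lox, a collagen crosslinking enzyme (-3.05, standard error 0.35). Slc2a1, the main glucose transporter of the RPE, rose by 0.89 (standard error 0.20) and was named after its value was seen. These rises were not even across sets. In the fit of 6 groups the KO effect was larger in the WT than in the Ctrl set by 1.82 for Eno1 (adjusted p = 0.0202). For Aldoa it was larger by 1.49 (0.0117), for Tfrc by 1.52 (0.0151) and for Slc2a1 by 1.13 (0.0305). Aldoa also differed between the WT and CreCtrl sets, by 1.37 (0.0269). Adm, Slc2a3 and Lox were not called in these contrasts. Hif1a and Epas1 mRNA rose in KO vs. WT, and genes of this list passed in both directions. Without the WT set fewer genes of the 6 lists passed, namely 3 VEGF receptor genes (all lower), 5 of the angiopoietin pathway (all lower), 3 of the thrombospondin list (all lower), 5 other secreted factors (4 lower), 1 HIF regulator (higher) and 11 hypoxia response genes (10 lower). Of all genes called without the WT set, 78 were higher and 976 lower in KO (7.40% higher), so a majority of lower calls is what all genes showed. With scaling by library size alone the hypoxia response list had 10 higher and 19 lower.

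**Figure D5:**
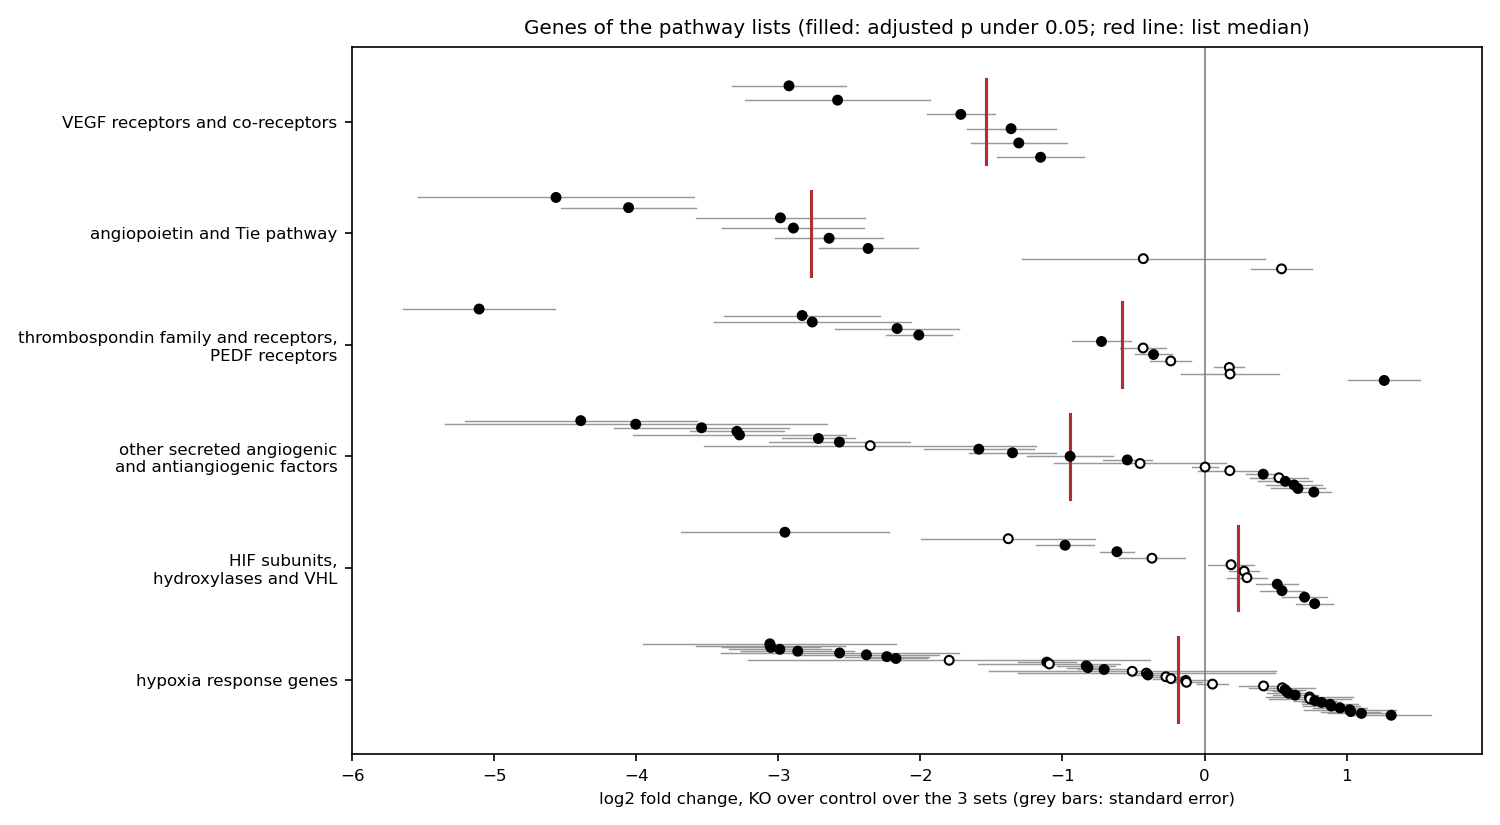
Log2 fold change of KO over control over the 3 sets (x axis) for the tested genes of 6 pathway lists, 1 point per gene, with standard errors in grey, list medians in red and filled points for an adjusted p under 0.05. All 6 VEGF receptor and co-receptor genes lie below 0, and hypoxia response genes run from -3.06 to 1.31.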

How the data were processed

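RNA of purified RPE cells from 14 mice was sequenced by the authors with a stranded poly(A) kit and paired-end reads aligned to GRCm38. The submitters' processing notes name bcl2fastq 2.19, STAR 2.5.2, Cufflinks 2.1.1 and HTSeq 0.11.2. The deposited table holds raw read counts for 42687 genes, not normalized by the authors. Whether counting used the strand is not given in the sources used here.

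From these counts, KO and control libraries were compared with edgeR 4.0.16 in R 4.3.3 (TMM factors, filterByExpr, quasi-likelihood test), within each set and over the 3 sets with the set as a covariate (10 residual degrees of freedom). Differences of effect between sets were tested in a fit of 6 groups (8 residual degrees of freedom). P-values were adjusted over all genes tested by the Benjamini-Hochberg method, with a threshold of 0.05. CPM were scaled within each set. Profiles over the 14 libraries used TMM factors of all 14. Exon lengths and positions were those of GENCODE M21 (42329 genes matched) and promoters from RefSeq. Alternatives were DESeq2 1.42.0, RLE and library size scaling, filters on low counts, the replicate number as a block, and leaving out libraries or sets. The fits were tested on simulated data. Libraries of the same group differed by more than sampling noise (chi-square per degree of freedom 18.7 to 124).

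The 10 genes and the lists were chosen with earlier results of these data known. The text names all 10 genes, the 2 genes nearest to each in profile, and the called genes with the largest changes over the 3 sets in each direction of each list.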

Additional observations from a re-analysis of the deposited data

Results flagged for a closer look

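In the 7 KO libraries, Vegfa was lowest in KO replicate 2 of the Ctrl set, at 886 CPM when all 14 libraries were scaled together. Its gap to the nearest KO library was 0.5702 of the range on the log2 scale, just above Dixon's critical value for 7 samples, and chance flags about 1 in 20 groups in this way. The KO effect on Vegfa differed between the WT and Ctrl sets by 0.92 and between the WT and CreCtrl sets by 1.18 on the log2 scale. The KO effect on Hif1a differed between the WT and Ctrl sets by 1.36 on the log2 scale. In each of these the effect was more positive in the WT set, whose controls were also of another genotype.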

How the results depend on the processing

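The number of the 10 factors that passed in KO vs. WT was 9, and 8 to 9 when single libraries were left out. In KO vs. Ctrl it was 0, and 0 without any single library, but 4 with genes of at least 1 count kept, 2 with DESeq2 and 1 in the fit of 6 groups. In KO vs. CreCtrl it was 4, against 7 with genes of at least 1 count kept, 6 with DESeq2, and 3 in the fit of 6 groups, where Pgf was lost (adjusted p = 0.0764). Calls over all genes moved with these settings too. In KO vs. Ctrl 26 were higher and 1632 lower with genes of at least 1 count kept. DESeq2 gave 17 and 1094 there, and the fit of 6 groups 13 and 635. In KO vs. CreCtrl 575 higher and 1954 lower calls went to 1862 and 2931 with that filter. They went to 1655 and 2441 with DESeq2, and to 198 and 506 in the fit of 6 groups. Over the 3 sets the number of factors was 8, against 5 with library size alone, 3 without the WT set and 7 to 9 without single libraries. The count of factors whose effect differed between the WT and Ctrl sets was 2, against 1 with RLE, 1 with library size alone and 6 with DESeq2. Between the WT and CreCtrl sets it was 1, against 0 with library size alone and 2 with DESeq2. The shares of all genes that differed between sets under these settings are not given here, so these counts are not a result about the factors alone. The causes were not tested.

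Log2 fold changes that changed sign were all uncalled. Without single libraries they ran in KO vs. Ctrl from -0.40 to 0.30 for Vegfc, from -2.10 to 0.18 for Pgf and from -0.56 to 0.12 for Hif1a. In KO vs. CreCtrl they ran from -0.0213 to 0.0652 for Vegfa and from -0.064 to 0.576 for Thbs1, and over the 3 sets from -0.150 to 0.0181 for Thbs1. Thbs1 was at 0.31 without the WT set. In KO vs. CreCtrl, Vegfa was at -0.20 with library size alone and -0.0292 with at least 10 counts in every library, and Vegfb at -8.34e-05 with library size alone.

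Libraries with the same replicate number shared only a number. The correlations of their deviations were -0.018, 0.0727 and 0.185 for WT, -0.00592 for Ctrl and 0.132 for CreCtrl. With the replicate number as a block, 9, 0 and 4 factors passed in KO vs. WT, Ctrl and CreCtrl and 6 over the 3 sets, where Vegfa (adjusted p = 0.0568) and Hif1a (0.0636) were not called. Of all genes, 2300 were then called higher and 2587 lower in KO vs. WT, and 0 and 113 in KO vs. Ctrl. In KO vs. CreCtrl the calls were 1108 and 2716, and over the 3 sets 2709 and 2612.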
